A study of Mus musculus with 96 samples.

Results

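Messenger RNA of 8 genes of the complement system was followed in the mouse striatum: C1ra, C1s1, C4b, C3, Cfb, Serping1, Cd55 and Cd59a. They were taken by gene symbol, and all 8 had a row among the 24060 gene rows of each library's table. RNA came from 48 adult mice in 6 experiments with 4 treated or mutant mice and 4 controls each. All mice carried a RiboTag AAV for 3 weeks, which put an HA-tagged ribosomal protein (Rpl22-HA) into striatal astrocytes. Each mouse gave an IP library, the ribosome-bound RNA pulled down by the tag, and an input library of the cleared lysate from the same tissue, which holds RNA of all cell types.

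In the QA experiment C57BL/6 mice had quinolinic acid (QA, 30 nM as labelled), an excitotoxin used to ablate medium spiny neurons, or vehicle microinjected into the striatum 2 weeks earlier. In the LPS experiment C57BL/6 mice received an intraperitoneal injection of lipopolysaccharide (LPS, 5 mg/kg), a bacterial cell wall component, or of vehicle, 24 h before RNA extraction. In the Kir4.1 experiment Kir4.1flox/flox mice received AAV5-GfaABC1D-Cre or AAV5-GfaABC1D-TdTomato in the striatum, both driven by an astrocyte promoter, so that the controls carried the floxed allele too. In the IP3R2 experiment mice labelled Itpr2-/- were compared with littermates labelled Itpr2+/+. Finally, C57BL/6 mice with the designer receptor rM3Ds (Gs-coupled) or hM3Dq (Gq-coupled) in striatal astrocytes received CNO (1 mg/kg) or vehicle. With rM3Ds the interval after CNO was 2 h, and for hM3Dq none is stated in the labels. Both arms of these 2 experiments carried the receptor, and no sample analysed here had CNO without it.

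Complement is a cascade of plasma and tissue proteins that tags cells and debris for removal. The proteases encoded by C1ra and C1s1 act with C1q at the head of the classical pathway and cleave C4, whose mouse gene C4b makes a protein that binds covalently to surfaces. C3 is the point where all pathways meet, and Cfb encodes the protease of the alternative loop that amplifies C3 cleavage. Serping1 encodes the C1 inhibitor, which blocks C1r and C1s, while Cd55 and Cd59a encode membrane proteins that shield a cell's own surface, Cd55 at the C3 convertase and Cd59a at the terminal membrane attack complex. In the brain, C3 and C4b are widely used as markers of reactive astrocytes, and C1q is made mainly by microglia.

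Libraries held 42482787 to 82256165 reads in genes in IP and 14738821 to 51033642 in input. The astrocyte markers were present in every control IP library, with a sum over 12 genes of 4810 to 8465 FPKM (fragments scaled to gene length and to library size), against 909 to 1092 FPKM in control input, although the cell type label reads striatal astrocytes for both. Markers of other cells were present in control IP too. There, 10 oligodendrocyte markers summed to 640 to 2149 FPKM, with 4 higher and 3 lower in IP than in input. Those of medium spiny neurons summed to 1116 to 2399 FPKM, though all 9 were lower in IP. Ependymal and choroid plexus markers were higher in IP for 6 of 8 and lower for 2, and all 15 microglia and macrophage markers were lower. IP was thus enriched for astrocyte RNA but not limited to it. The target of the floxed allele, Kcnj10, was at 27.9 to 36.1 FPKM in Cre IP libraries, against 142 to 164 FPKM in TdTomato IP libraries. Itpr2, however, was at 10.4 to 14.5 FPKM in IP of the mice labelled knockout and at 9.92 to 13.7 FPKM in IP of the wild-type littermates. The gene-level value can include reads outside a deleted stretch, so it does not check that label, and these libraries are called by it below. By Xist and Y-linked genes the QA arm held 1 female (replicate 1) and 3 males and its vehicle arm 4 females. CNO replicate 2 and vehicle replicate 1 of the hM3Dq experiment, and QA replicate 3, stood apart for several of the 8 genes, and LPS replicate 2 over all genes. Values without them stand beside the results they touch most.

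The genes lie at a few places of the genome (RefSeq, GRCm38.p6). C1ra and C1s1 are neighbours on chromosome 6, at chr6:124512621-124523440 and chr6:124530344-124542392. C4b (chr17:34728139-34743902) and Cfb (chr17:34856374-34862514) lie near each other on chromosome 17, which also holds C3 (chr17:57203967-57228136). Serping1 is at chr2:84765360-84775444, Cd59a at chr2:104095753-104115410 and Cd55 at chr1:130429798-130465009.

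RefSeq promoter windows (250 bases before to 50 after a transcript start) were at hand for 5 of the 8 genes. Those of C3, C1ra and C1s1 are shown because these genes were higher in both the QA and the LPS mice. Capitals mark matches, on either strand, to the letters searched for kappaB, GAS (TTCNNNGAA) and CEBP (TTNNGNAA), the binding motifs of NF-kappaB, STAT and C/EBP proteins. ISRE and AP-1 (TGANTCA) were also searched, and neither was found in these 3 windows.
C3, chr17:57228087-57228386, minus strand: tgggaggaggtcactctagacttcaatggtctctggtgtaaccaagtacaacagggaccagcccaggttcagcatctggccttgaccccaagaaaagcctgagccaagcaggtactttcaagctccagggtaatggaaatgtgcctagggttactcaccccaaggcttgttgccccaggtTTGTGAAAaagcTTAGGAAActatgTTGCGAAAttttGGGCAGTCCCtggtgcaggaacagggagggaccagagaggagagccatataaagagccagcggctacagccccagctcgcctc
C1ra, chr6:124512371-124512670, plus strand: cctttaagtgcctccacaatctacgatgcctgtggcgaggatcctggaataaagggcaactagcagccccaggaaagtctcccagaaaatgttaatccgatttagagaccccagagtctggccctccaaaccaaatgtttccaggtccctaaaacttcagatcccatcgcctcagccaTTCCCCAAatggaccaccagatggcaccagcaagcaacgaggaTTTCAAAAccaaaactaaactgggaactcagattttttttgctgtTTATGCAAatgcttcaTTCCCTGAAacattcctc
C1s1, chr6:124542310-124542609, minus strand: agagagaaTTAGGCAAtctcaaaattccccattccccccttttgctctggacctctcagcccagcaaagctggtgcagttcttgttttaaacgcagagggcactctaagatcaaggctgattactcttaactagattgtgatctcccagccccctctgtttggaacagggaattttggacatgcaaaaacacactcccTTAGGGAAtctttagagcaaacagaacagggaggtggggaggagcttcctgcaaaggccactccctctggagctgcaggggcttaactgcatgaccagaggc
The C3 window held the kappaB letters GGGCAGTCCC from -33 to -24 relative to the start, and 3 CEBP matches (TTGTGAAA, TTAGGAAA and TTGCGAAA) just before it, between -70 and -38. The C1ra window held a GAS match, TTCCCTGAA, from 32 to 40 after the start and 3 CEBP matches, and the C1s1 window shown 2 CEBP matches. A window at another C1s1 start (chr6:124542272-124542571) held only the CEBP match TTAGGGAA, from -90 to -83. Of the windows not shown, that of Cd55, which fell with QA, held a kappaB match (GGGAACGCCC, -61 to -52). That of Cd59a held an ISRE match (GAAAGGGAAA, -187 to -178). Of all 32851 promoter windows, 19.4% held a kappaB match, 8.30% a GAS match, 3.44% an ISRE match, 7.81% an AP-1 match and 40.7% a CEBP match. No motif overlapped another in these windows, and a match describes the letters only.

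In control mice, C4b was the most abundant of the 8 in astrocyte ribosome-bound RNA, at 193 ± 69.9 FPKM (SD, n = 24 mice of 6 experiments), and Serping1 came next at 28.4 ± 11.1 FPKM. Cd59a (8.58 ± 3.28 FPKM), C3 (7.07 ± 2.66 FPKM) and C1ra (4.38 ± 1.57 FPKM) followed. Cd55 (3.44 ± 0.546 FPKM) and C1s1 (3.05 ± 1.39 FPKM) lay close below, and Cfb was lowest at 0.927 ± 0.739 FPKM. The neighbours Cd59a and C3, C1ra and Cd55, and Cd55 and C1s1 differed by less than the SD of the more variable gene, while C3 and C1ra differed by slightly more. The order in input was another, with C4b (41.3 ± 17.1 FPKM) and Cd59a (14.5 ± 5.06 FPKM) at the top and C1s1 (0.748 ± 0.344 FPKM) at the bottom.

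Of the 8 genes, 6 were more abundant in IP than in input and 2 were less abundant. Per mouse, the ratio of IP to input FPKM had its median at 5.01 for C4b, with a range of 3.36 to 6.14 over the 24 control mice. For Serping1, C1ra and C1s1 the median ratios were 4.15, 3.77 and 3.82, and every control mouse was above 1. Cd55 was enriched less, with a median of 1.54. C3 had a median of 1.77 and was higher in IP in 22 of 24 mice, the exceptions being 1 vehicle mouse of the QA experiment and 1 wild-type littermate. Cfb and Cd59a were lower in IP in all 24 mice, at median ratios of 0.231 and 0.600.

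In a fit over all genes with the mouse as a block, log2 of IP over input was 2.49 ± 0.05 (SE) for C4b (limma adjusted p = 9.20e-26), 2.30 ± 0.06 for Serping1, 2.13 ± 0.08 for C1ra and 2.09 ± 0.09 for C1s1. It was 1.10 ± 0.13 for C3 (limma adjusted p = 5.47e-09), 0.83 ± 0.04 for Cd55, -0.52 ± 0.05 for Cd59a and -1.64 ± 0.14 for Cfb (limma adjusted p = 1.27e-11). All 8 passed an adjusted p of 0.05, as did 88.6% of the 15566 genes tested, and a count of 8 therefore says little about these genes in this comparison. The median over all genes was -0.02, and without TMM scaling (factors that align the bulk of genes between libraries) it was -0.24. By experiment, the value for Cfb was lowest in the vehicle mice of the QA experiment and the wild-type littermates of the IP3R2 experiment, at -2.41 in both, and highest in the hM3Dq vehicle mice, at -0.62. That for C3 ran from 0.43 in the wild-type littermates to 1.77 in the hM3Dq vehicle mice.

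**Figure D1:**
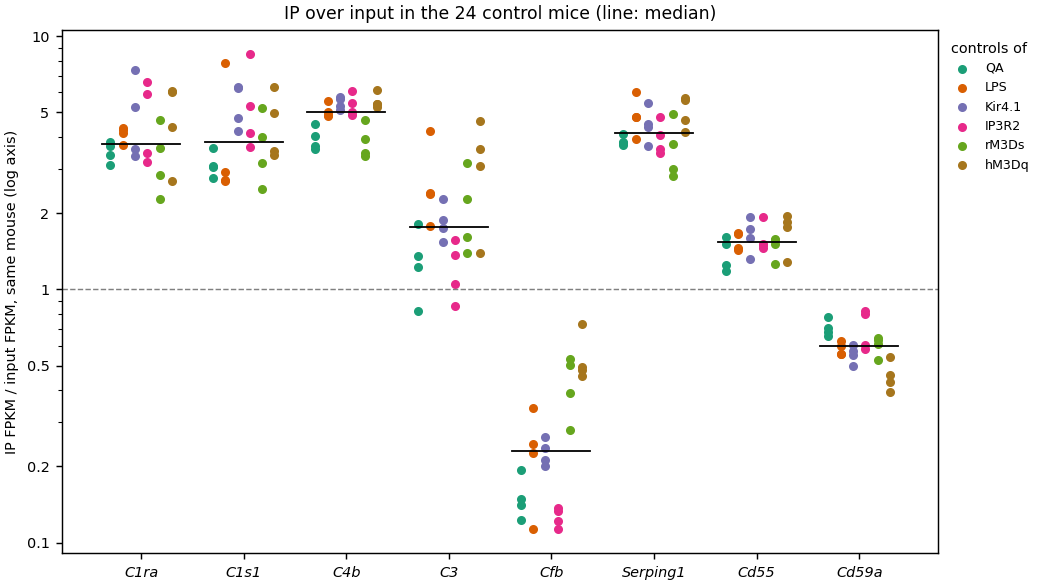
Ratio of IP to input FPKM of the 8 genes (log axis) in each of the 24 control mice, coloured by experiment, with the median as a line and equal levels as a dashed line. C4b, Serping1, C1ra, C1s1 and Cd55 lie above 1 in all mice, C3 in 22 of 24, and Cfb and Cd59a below 1 in all.

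Among the 46 other complement genes in the tables, 24 passed the filter on low values (at least 0.5 FPKM in at least 4 libraries), of which 5 were higher and 16 lower in IP. The C1q chains, which microglia make, were lowest, with log2 values of -5.52 for C1qb, -5.42 for C1qc and -5.32 for C1qa. Itgam, a chain of complement receptor 3, followed at -4.40.

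**Figure D2:**
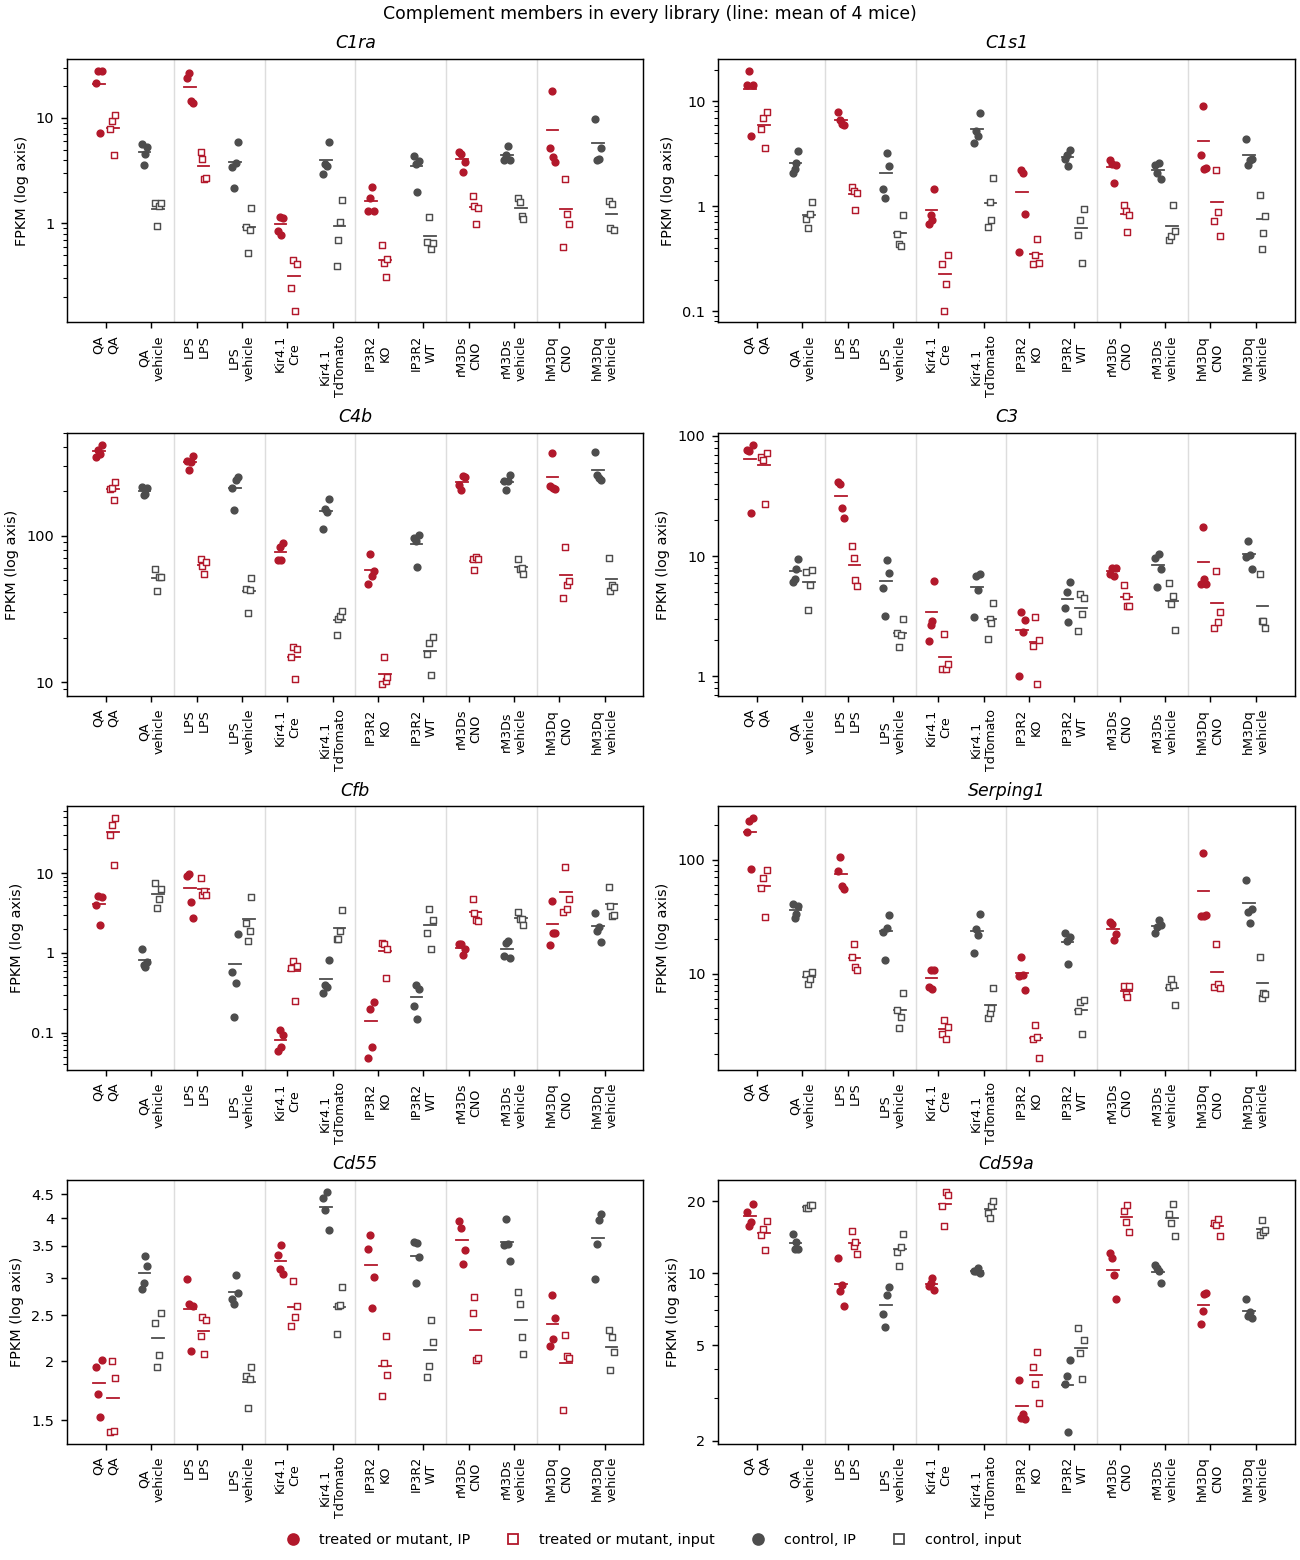
FPKM of the 8 genes (log axes) in every IP (filled circles) and input (open squares) library, by experiment with the treated or mutant arm (red) left of its control arm (grey), and the mean of 4 mice as a line. In IP the means of C1ra, C1s1, C4b, C3, Cfb and Serping1 are highest in the QA and LPS arms, while in the Cre arm most of the 8 genes lie below the TdTomato arm.

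At 2 weeks after QA, both the initiating proteases and C3 were several-fold higher. In IP, 7 of the 8 genes were higher and 1 was lower at a limma adjusted p under 0.05, where 74.0% of the 13824 genes tested passed. The median change of the 8 was 2.01 on the log2 scale, against -0.02 over all genes tested. This and all later fits compared 4 treated with 4 control mice, and changes are log2 ratios of TMM-scaled FPKM + 0.1, given with their SE. These are bulk samples, in which a change in the number of cells and a change in RNA per cell cannot be told apart.

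The proteases of the C1 complex rose. C1ra was at 21.3, 27.8, 7.18 and 27.9 FPKM in IP of QA replicates 1 to 4, against 5.66, 3.60, 4.53 and 5.30 FPKM in IP of the vehicle mice. C1s1 was at 14.3, 19.4, 4.66 and 14.3 FPKM in QA IP, against 2.07, 2.25, 2.56 and 3.37 FPKM in vehicle IP. The arms did not overlap for either gene, and QA replicate 3 was the lowest of the QA mice for both. The log2 changes were 1.92 ± 0.39 for C1ra (limma adjusted p = 0.00135) and 2.13 ± 0.38 for C1s1 (limma adjusted p = 0.000611).

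C4b, their substrate, was at 341, 381, 359 and 415 FPKM in QA IP, against 214, 188, 193 and 212 FPKM in vehicle IP. All QA mice, replicate 3 among them, lay close together and above all vehicle mice. Its change was small but tight, at 0.85 ± 0.07 (limma adjusted p = 5.81e-06), or 1.80-fold.

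C3 was at 76.8, 75.3, 22.8 and 84.4 FPKM in QA IP, against 6.10, 6.45, 7.81 and 9.41 FPKM in vehicle IP. QA replicates 1, 2 and 4 were alike, and replicate 3 was far below them, yet above every vehicle mouse. The change was 2.92 ± 0.37 (limma adjusted p = 7.00e-05), or 7.57-fold, and 3.36 without replicate 3. Cfb, the protease of the alternative pathway, was at 4.00, 5.13, 2.21 and 5.00 FPKM in QA IP and 1.12, 0.705, 0.664 and 0.772 FPKM in vehicle IP. Again no values overlapped and replicate 3 was lowest of the QA mice. Its change was 2.11 ± 0.26 (limma adjusted p = 5.06e-05).

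The regulators split. Serping1 was at 176, 216, 83.1 and 229 FPKM in QA IP, against 40.8, 30.8, 33.7 and 39.5 FPKM in vehicle IP, a change of 2.15 ± 0.28 (limma adjusted p = 7.81e-05). Replicate 3 was again lowest, and the arms did not overlap. Cd55 was the one gene of the 8 that fell in IP, to 1.94, 1.70, 1.53 and 2.01 FPKM in QA IP, against 2.84, 2.93, 3.34 and 3.18 FPKM in vehicle IP, without overlap (-0.79 ± 0.10, limma adjusted p = 7.11e-05). Cd59a was slightly higher, at 18.0, 15.8, 16.3 and 19.4 FPKM in QA IP and 14.6, 12.6, 13.5 and 12.6 FPKM in vehicle IP (0.34 ± 0.07, limma adjusted p = 0.00243). Without replicate 3 the changes in IP were 2.36 for C1ra, 2.56 for C1s1, 2.37 for Cfb and 2.46 for Serping1, and all 8 genes kept their calls. In no gene of the 8 did the arms of the QA experiment overlap in IP, which held for 69.8% of all genes tested.

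In input, 6 genes rose and Cd55 and Cd59a fell, where 73.0% of 14831 genes passed. C3 averaged 57.1 ± 20.2 FPKM in QA input and 6.10 ± 1.90 FPKM in vehicle input (SD, n = 4 each), with a log2 change of 3.06 ± 0.33 (limma adjusted p = 1.88e-05). Cfb was at 29.8, 39.7, 12.8 and 48.4 FPKM in QA input, against 7.49, 3.64, 4.73 and 6.26 FPKM in vehicle input, so that it was more abundant in lysate than in astrocyte IP in both arms. C4b was at 207, 212, 175 and 231 FPKM in QA input and 59.4, 41.9, 52.4 and 52.4 FPKM in vehicle input, a rise of 1.89 ± 0.11 (limma adjusted p = 3.33e-07). Serping1 was at 55.8, 68.3, 31.4 and 80.5 FPKM in QA input, against 9.90, 8.06, 9.03 and 10.4 FPKM in vehicle input. QA replicate 3 was lowest of the QA mice in input for all 6 genes that rose, and above every vehicle mouse. Without replicate 3 the changes in input were 3.38 for C3, 1.96 for C4b, 2.71 for Cfb and 2.73 for Serping1, and all 8 calls held. With all mice the changes of C1ra, C1s1 and Serping1 were 2.32 ± 0.26, 2.56 ± 0.25 and 2.46 ± 0.25. Cd59a fell to 14.4, 15.3, 12.5 and 16.5 FPKM in QA input, against 18.7, 18.6, 19.2 and 19.2 FPKM in vehicle input (-0.48 ± 0.08, limma adjusted p = 0.000385). The log2 change of Cd55 in input was -0.51 ± 0.15 (limma adjusted p = 0.0103), with overlap of the arms, so that the arms of 7 of the 8 genes did not overlap in input, as for 66.9% of all genes tested.

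The effect of QA differed between IP and input for 3 of the 8 genes, where 47.0% of 15154 genes differed (a test of the difference with the mouse as a block). C4b rose less in IP than in input, with a difference of -0.96 ± 0.09 (limma adjusted p = 4.32e-05). Serping1 also rose less in IP, at -0.23 ± 0.06 (limma adjusted p = 0.0126), a difference that did not pass without the mouse block or with a pseudocount of 1. Cd59a went opposite ways, up in IP and down in input, with a difference of 0.90 ± 0.09 (limma adjusted p = 4.92e-05). For C3 the difference was -0.05, with a 95% interval of -0.52 to 0.41.

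Cell type markers moved in the same comparison. The list of microglia and macrophage markers shares C1qa, C1qb, C1qc and Itgam with the other complement genes, and the mural list shares Vtn. All 15 markers of microglia and macrophages were higher in QA mice in both fractions. Their summed level was 97.4 to 163 FPKM in QA IP and 41.6 to 48.3 FPKM in vehicle IP, and in input 6544 to 9726 FPKM with QA and 1203 to 1397 FPKM with vehicle. Of the 12 astrocyte markers 8 rose and 2 fell in IP, with sums of 8168 to 9932 FPKM in QA IP and 5312 to 5803 FPKM in vehicle IP. All 9 listed genes of medium spiny neurons fell in IP and in input, their sum being 335 to 512 FPKM in QA IP and 2287 to 2399 FPKM in vehicle IP. Oligodendrocyte markers were higher for 10 of 10 in IP, with sums of 3760 to 5168 FPKM in QA IP and 1918 to 2149 FPKM in vehicle IP, and ependymal ones for 6 of 6, with 130 to 164 FPKM in QA IP and 45.8 to 73.0 FPKM in vehicle IP. In input 10 of 12 astrocyte markers were higher (2277 to 2886 FPKM with QA and 1058 to 1092 FPKM with vehicle). So were 7 of 8 leukocyte markers (53.6 to 172 FPKM with QA and 46.6 to 59.9 FPKM with vehicle), 10 of 11 endothelial markers and 8 of 9 fibroblast and meningeal markers. Oligodendrocyte markers were higher for 9 of 10 in input, with sums of 2674 to 3061 FPKM with QA and 1730 to 1884 FPKM with vehicle. Mural markers were higher there for 6 of 9, and none of these 2 lists was lower. Ependymal ones were higher for 5 of 7 and lower for 1. The part of these shifts in the changes of the 8 genes was not tested. Sex and treatment were mostly confounded here. With sex as a covariate the change rested on QA replicate 1, the only QA female, against the 4 vehicle females. In that fit it was 3.32 for C3 and 0.71 for C4b in IP, and all 8 genes kept their direction in both fractions. Resting on 1 QA mouse, this fit cannot separate sex from treatment.

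Of the other complement genes, 20 passed the filter in IP, of which 12 rose and 5 fell. The largest rises were those of the C1q chains C1qa (2.34, mean 27.4 FPKM in QA IP and 5.01 FPKM in vehicle IP) and C1qc (2.19), of C2, the protease that pairs with C4 in the classical C3 convertase (2.24), and of the integrin chain Itgb2 (2.13). In input 19 of 25 rose and 4 fell, led by the anaphylatoxin receptors C3ar1 (3.40) and C5ar1 (2.88), Itgb2 (2.85) and C1qc (2.79). The difference of the QA effect between IP and input passed below 0 for 19 of 26 of these genes and above 0 for 1. The other 6 were not called, and 47.0% of 15154 genes differed. The largest differences called were those of C5ar1 (-1.98), Masp1 of the lectin pathway (-1.44), C3ar1 (-1.36) and Vtn (-1.20).

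**Figure D3:**
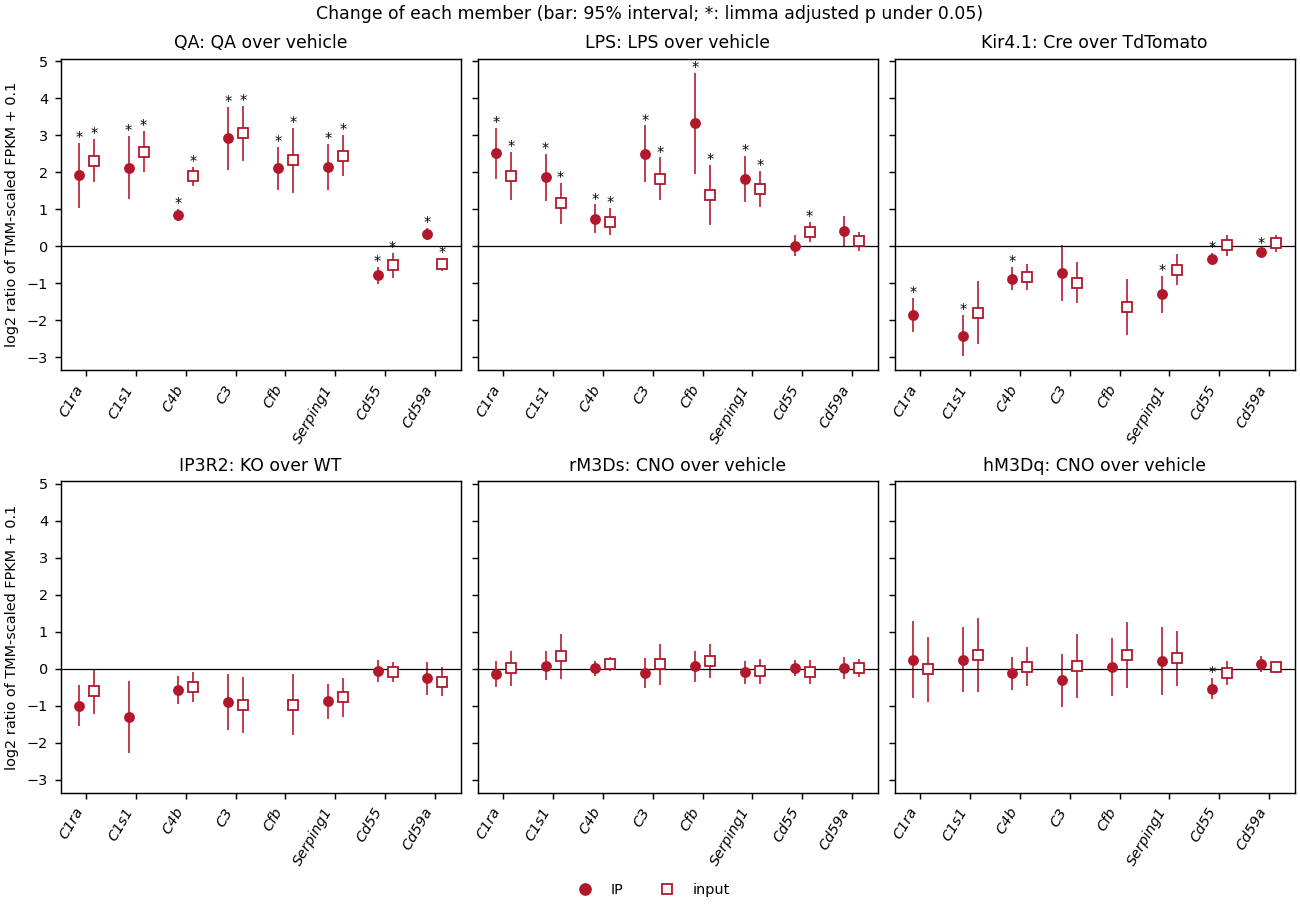
Log2 change of each of the 8 genes in each experiment, treated or mutant over control, in IP (filled circles) and input (open squares), with 95% intervals and an asterisk where the limma adjusted p was under 0.05; genes below the filter on low values have no point. In the QA and LPS panels C1ra, C1s1, C4b, C3, Cfb and Serping1 all lie above 0, in the Kir4.1 IP series all 7 points lie below 0, and the IP3R2, rM3Ds and hM3Dq panels hold 1 asterisk, at Cd55 in hM3Dq IP.

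At 24 h after LPS, 6 of the 8 genes were higher in astrocyte IP and none was lower, where 36.9% of 13641 genes passed. The median change of the 8 was 1.84, against -0.02 over all genes tested. In the main fit Cfb rose most, followed by C1ra and C3, and C4b least of the 6. Over the alternative fits the log2 change was 2.16 to 3.82 for Cfb, 2.24 to 2.76 for C1ra and 2.21 to 2.73 for C3. These ranges overlap, so the rank of Cfb is not firm.

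C1ra was at 24.2, 26.8, 14.5 and 13.9 FPKM in LPS IP, against 3.41, 2.17, 3.70 and 5.94 FPKM in vehicle IP (2.52 ± 0.30, limma adjusted p = 0.00151). C1s1, the neighbouring gene, was at 7.87, 6.62, 6.05 and 5.91 FPKM in LPS IP, against 1.45, 1.18, 3.23 and 2.40 FPKM in vehicle IP (1.86 ± 0.28, limma adjusted p = 0.0036). C4b was at 322, 280, 318.6 and 348 FPKM in LPS IP, against 210, 150, 237 and 250 FPKM in vehicle IP (0.75 ± 0.17, limma adjusted p = 0.0139). None of these overlapped between arms, as for 35.7% of all genes tested, and LPS replicates 3 and 4 were the lower LPS mice for C1ra.

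Cfb was at 9.30, 9.79, 4.35 and 2.74 FPKM in LPS IP, against 0.581, 0.158, 0.421 and 1.71 FPKM in vehicle IP. LPS replicates 1 and 2 were well above replicates 3 and 4, but the arms did not overlap. The change was 3.33 ± 0.60 (limma adjusted p = 0.00647), or 10.02-fold with a wide 95% interval of 1.97 to 4.68 on the log2 scale. C3 was at 41.3, 40.0, 25.0 and 20.8 FPKM in LPS IP, against 5.42, 3.15, 9.27 and 7.21 FPKM in vehicle IP, with the same pair of LPS mice on top (2.51 ± 0.33, limma adjusted p = 0.0022).

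Serping1 was at 78.6, 106, 58.6 and 55.5 FPKM in LPS IP, against 23.3, 13.3, 25.2 and 32.9 FPKM in vehicle IP (1.82 ± 0.27, limma adjusted p = 0.00338). The membrane regulators did not pass. Cd55 averaged 2.58 ± 0.358 FPKM in LPS IP and 2.80 ± 0.174 FPKM in vehicle IP, a log2 difference of 0.02 with a 95% interval of -0.26 to 0.30 that turned to -0.12 without TMM scaling. Cd59a averaged 9.02 ± 1.80 FPKM in LPS IP and 7.39 ± 1.26 FPKM in vehicle IP (0.42 ± 0.18, limma adjusted p = 0.0873), and passed when LPS replicate 2 was left out (0.50, limma adjusted p = 0.0368). LPS replicate 2 was the highest LPS mouse for C1ra, Cfb and Serping1 in IP. The 6 genes kept their calls in IP without it, as did the 7 called in input, with Serping1 at 1.68 and Cfb at 3.12 in IP.

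In input 7 genes were higher after LPS, where 31.3% of 14511 genes passed, and Cd59a was not called (0.14 ± 0.11, limma adjusted p = 0.36). C1ra was at 4.71, 4.06, 2.66 and 2.67 FPKM in LPS input, against 0.917, 0.523, 0.857 and 1.39 FPKM in vehicle input (1.90 ± 0.29, limma adjusted p = 0.00363). C3 was at 12.1, 9.57, 6.29 and 5.62 FPKM in LPS input, against 2.28, 1.76, 2.20 and 2.99 FPKM in vehicle input (1.83 ± 0.26, limma adjusted p = 0.00255). LPS replicate 1 was highest for both. The rises of Serping1, C1s1 and C4b were 1.55 ± 0.22, 1.16 ± 0.25 and 0.67 ± 0.16. Cfb was at 8.80, 5.31, 5.91 and 5.31 FPKM in LPS input, against 2.37, 1.40, 1.87 and 5.04 FPKM in vehicle input (1.40 ± 0.36, limma adjusted p = 0.0227). Vehicle replicate 4 came close to the LPS mice for Cfb, but the arms of all 7 called genes lay apart in input, as for 28.6% of all genes tested. The call of Cfb was lost when any of LPS replicates 1 or 3 or vehicle replicates 1, 2 or 3 was left out, with a limma adjusted p of at most 0.0652. Cd55 rose by 0.39 ± 0.12 (limma adjusted p = 0.0341), a call that 10 of its alternatives lost, and that of C4b was lost without LPS replicate 4.

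The LPS effect was larger in IP than in input for 2 genes, where 8.43% of 14908 genes differed. For Cfb the difference was 1.95 ± 0.36 (limma adjusted p = 0.0147), and for C1ra 0.62 ± 0.11 (limma adjusted p = 0.0121). Both calls were lost without the mouse block, and that of C1ra without LPS replicate 3 (limma adjusted p = 0.053). Mean Cfb in IP was 6.54 FPKM in LPS mice, close to that of their input at 6.33 FPKM, whereas vehicle mice averaged 0.718 FPKM in IP and 2.67 FPKM in input. The difference for C3 was 0.68 (limma adjusted p = 0.0748) and that for C1s1 0.71 (limma adjusted p = 0.165). Both passed without vehicle replicate 3, at 0.91 for C3 (limma adjusted p = 0.017) and 1.05 for C1s1 (limma adjusted p = 0.0267). Cd59a passed without LPS replicate 2 (0.30, limma adjusted p = 0.03), against 0.27 with all mice. The difference for Cd55 had the opposite sign, at -0.38 (limma adjusted p = 0.0722), and passed without TMM scaling (limma adjusted p = 0.0425). For C4b it was 0.07, with a 95% interval of -0.14 to 0.28, and turned to -0.01 without TMM scaling.

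Microglia and macrophage markers did not move as one after LPS. In IP 4 of 10 tested were higher and none lower, with sums of 31.2 to 37.3 FPKM in LPS IP and 32.7 to 37.98 FPKM in vehicle IP. In input 3 were higher and 6 lower, with sums of 783 to 1108 FPKM in LPS input and 732 to 930 FPKM in vehicle input. Endothelial markers, 3 of 5 tested of which were higher in IP, summed to 4.26 to 8.79 FPKM in LPS IP and 4.07 to 5.14 FPKM in vehicle IP. Astrocyte markers were higher for 6 of 12 and lower for none in IP, with sums of 6958 to 7367 FPKM in LPS IP and 5987 to 6510 FPKM in vehicle IP, which did not overlap. Oligodendrocyte markers were higher for 5 of 10 in IP, with overlapping sums of 1399 to 2321 FPKM in LPS IP and 1025 to 1725 FPKM in vehicle IP. Mural markers were lower for 4 of 6 in IP, with sums of 19.3 to 28.9 FPKM in LPS IP and 34.0 to 37.99 FPKM in vehicle IP. In input 4 of 9 leukocyte markers were higher, with sums of 51.8 to 69.3 FPKM in LPS input and 30.2 to 53.1 FPKM in vehicle input. The part of all these in the changes of the 8 genes was not tested.

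Of the other complement genes, 18 passed the filter in IP, of which 6 rose and 4 fell. C2 rose by 1.89, the C1r-like gene C1rl by 1.37 and C1qa by 0.90, while Vtn, an inhibitor of the attack complex, fell by 0.95 on the log2 scale. In input 8 of 24 rose and 4 fell, led by C5ar1 (2.05) and C3ar1 (1.99), with C2 at 0.91 and Vtn at -0.75. The difference between IP and input passed for 4 of these genes, namely C5ar1 (-1.62), C1rl (1.58), C3ar1 (-1.08) and Cr1l (0.37).

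In Kir4.1flox/flox mice given Cre, complement genes were lower in astrocyte IP than in mice given TdTomato. Of 7 genes that passed the filter, 6 were lower and none higher, where 29.3% of 13537 genes passed, and the median change of the 7 was -0.88, against 0.01 over all genes tested.

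The C1 proteases fell most. C1s1 was at 0.671, 0.819, 0.742 and 1.46 FPKM in Cre IP, against 3.99, 5.16, 4.69 and 7.78 FPKM in TdTomato IP, without overlap (-2.41 ± 0.25, limma adjusted p = 9.88e-05). C1ra was at 0.849, 1.15, 0.783 and 1.12 FPKM in Cre IP, against 2.93, 3.63, 3.48 and 5.92 FPKM in TdTomato IP (-1.86 ± 0.21, limma adjusted p = 0.000167). All Cre mice were far below all TdTomato mice, and the Cre levels of both genes were the lowest of the 12 arms in IP. C4b was at 68.2, 83.1, 68.7 and 89.7 FPKM in Cre IP, against 112, 153, 144 and 178 FPKM in TdTomato IP (-0.88 ± 0.14, limma adjusted p = 0.00142).

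C3 was at 1.95, 2.68, 2.88 and 6.19 FPKM in Cre IP, against 3.11, 6.89, 5.24 and 7.09 FPKM in TdTomato IP. Cre replicate 4 lay among the TdTomato mice, and C3 was not called (-0.72 ± 0.35, limma adjusted p = 0.146). Without that mouse the change was -1.05 (limma adjusted p = 0.0205). Cfb was below the filter, at 0.0597, 0.108, 0.0656 and 0.0942 FPKM in Cre IP, from 10 to 20 reads a library, against 0.318, 0.393, 0.375 and 0.803 FPKM in TdTomato IP. The arms did not overlap, and a fit without the filter gave -1.57 ± 0.24 (limma adjusted p = 0.00243).

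Serping1 fell to 7.69, 10.9, 7.31 and 10.9 FPKM in Cre IP, against 15.1, 24.8, 21.8 and 33.7 FPKM in TdTomato IP (-1.30 ± 0.23, limma adjusted p = 0.00222). Cd55 averaged 3.26 ± 0.212 FPKM in Cre IP and 4.23 ± 0.334 FPKM in TdTomato IP (-0.33 ± 0.07, limma adjusted p = 0.00688). Cd59a was lower by little, at 9.003 ± 0.429 FPKM in Cre IP and 10.3 ± 0.221 FPKM in TdTomato IP (-0.15 ± 0.04, limma adjusted p = 0.0265). Leaving out Cre replicate 1 or 4 or TdTomato replicate 2, 3 or 4 ended the call of Cd59a. A spread shared over all experiments of the fraction ended it too, and the limma adjusted p in these fits was at most 0.571. The arms of the 6 called genes did not overlap, as for 30.5% of all genes tested.

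In input none of 7 tested genes passed in limma, where 0.346% of 14160 genes passed. At an unadjusted p under 0.05, a looser threshold, there were 5 of the 7, and the share of all genes at it is not given here. C4b was at 14.8, 17.5, 10.5 and 16.8 FPKM in Cre input, against 21.1, 27.0, 28.3 and 30.9 FPKM in TdTomato input, without overlap (-0.83 ± 0.16, limma adjusted p = 0.059). C1s1 (-1.79 ± 0.39, limma adjusted p = 0.0993) and Cfb (-1.63 ± 0.34, limma adjusted p = 0.0926) also had lower values without overlap. C4b passed without Cre replicate 2 (-0.92, limma adjusted p = 0.0471). With voom weights on the recovered reads 4 genes passed in input, all lower: C4b, C1s1, C3 and Cfb. Voom also called more of all genes than limma did here, with the counts given in the last section. The Cre effect differed between IP and input for Serping1 alone of the 8 (-0.67 ± 0.12, limma adjusted p = 0.0217), where 2.43% of 14583 genes differed. The median of the 7 was -0.83 in input, against 0.00 over all genes tested. Of the 7 genes, 4 had arms without overlap in input, as for 5.62% of all genes tested. The call of Serping1 was lost without the mouse block and when any of 6 of the 8 mice was left out.

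Of the microglia and macrophage markers 5 of 12 tested were lower in Cre IP and none higher, with sums of 29.6 to 34.2 FPKM in Cre IP and 36.9 to 43.0 FPKM in TdTomato IP. Oligodendrocyte markers were lower for 10 of 10, with sums of 984 to 1222 FPKM in Cre IP and 1374 to 1764 FPKM in TdTomato IP. The astrocyte markers, among them the deleted gene itself, had 3 higher and 4 lower of 12 and summed to 5447 to 5768 FPKM in Cre IP and 5240 to 5753 FPKM in TdTomato IP. Markers of medium spiny neurons were higher for 9 of 9, with sums of 1890 to 1952 FPKM in Cre IP and 1555 to 1654 FPKM in TdTomato IP, and mural markers were lower for 4 of 7 and higher for 1. Their part in the falls of the complement genes was not tested. Of the other complement genes 14 passed the filter in IP, of which 5 were lower and 2 higher, C2 (-1.80), C1qa (-0.83), C1qc (-0.70) and Vtn (-0.62) having the largest changes. In input 3 of 20 were lower, the integrin chains Itgax (-1.72), Itgb2 (-0.59) and Itgam (-0.52).

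In the mice labelled Itpr2-/-, none of the 7 genes tested in IP passed in limma, where 0% of 13359 genes passed, and voom on recovered reads also called none. At an unadjusted p under 0.05, a looser threshold, there were 5 of the 7, all with lower values in the mice labelled knockout. The share of all genes at that threshold is not given here. Serping1 was at 9.54, 14.03, 9.80 and 7.23 FPKM in IP of mice labelled knockout, against 22.5, 19.5, 12.1 and 21.1 FPKM in wild-type IP (-0.88 ± 0.21, limma adjusted p = 0.591). Wild-type replicate 3 fell among the mice labelled knockout. C1ra was at 1.31, 1.75, 2.22 and 1.30 FPKM in IP of mice labelled knockout and 4.39, 3.62, 1.97 and 3.89 FPKM in wild-type IP, again with wild-type replicate 3 within the range of the others (-0.998 ± 0.25, limma adjusted p = 0.591).

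C4b averaged 58.0 ± 11.9 FPKM in IP of mice labelled knockout and 87.5 ± 18.1 FPKM in wild-type IP (-0.58 ± 0.17, limma adjusted p = 0.642). C1s1 was at 0.363, 2.21, 2.05 and 0.843 FPKM in IP of mice labelled knockout and 2.81, 3.06, 2.42 and 3.40 FPKM in wild-type IP (-1.30 ± 0.44), the one gene of the 7 without overlap, as for 3.00% of all genes tested. C3 was at 1.01, 3.40, 2.34 and 2.95 FPKM in IP of mice labelled knockout and 3.72, 5.05, 2.81 and 6.10 FPKM in wild-type IP. The log2 differences were -0.90 ± 0.34 for C3, -0.07 ± 0.13 for Cd55 and -0.25 ± 0.20 for Cd59a, and the limma adjusted p of these 4 genes ran from 0.775 to 0.974. Cfb was below the filter, at 0.0483, 0.197, 0.0666 and 0.242 FPKM in IP of mice labelled knockout and 0.216, 0.395, 0.149 and 0.353 FPKM in wild-type IP. In input none of 7 passed in limma, where 0.00709% of 14099 genes passed, or with voom, and 4 had an unadjusted p under 0.05. The share of all genes at that looser threshold is not given here either. Genes listed at 0 numbered 7351 to 8561 in IP of mice labelled knockout and 6990 to 7700 in wild-type IP, and the part of that in these values was not tested. None of the 8 genes had a different effect in IP and input in limma, where 0% of genes did, and none had an unadjusted p under 0.05 there. Of the other complement genes, none of 17 passed in IP and none of 21 in input, with 2 and 4 at an unadjusted p under 0.05.

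Both arms of the IP3R2 experiment differed from the other experiments in C4a and in Cd59a. C4b in IP overlapped, at 46.8 to 102 FPKM in this experiment and 68.2 to 415 FPKM in the others. C4a, the paralog of C4b listed as a transcribed pseudogene in RefSeq, was at 3.39, 4.33, 3.23 and 3.06 FPKM in IP of mice labelled knockout and 6.16, 6.00, 3.83 and 6.74 FPKM in IP of their wild-type littermates. In the other 40 IP libraries it was at 0.00306 to 0.119 FPKM, or 1 to 31 reads, against 814 to 2044 reads in the 8 libraries of this experiment. Cd59a was at 2.18 to 4.34 FPKM in these 8 IP libraries and at 5.95 to 19.4 FPKM in the other 40, without overlap. In input it was at 2.87 to 5.92 FPKM in this experiment and 10.7 to 21.8 FPKM in the others. The labels give these mice by their Itpr2 genotype, with no strain, while the QA, LPS, rM3Ds and hM3Dq mice are labelled C57BL/6. Strain, experiment and sequencing project cannot be told apart here.

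**Figure D4:**
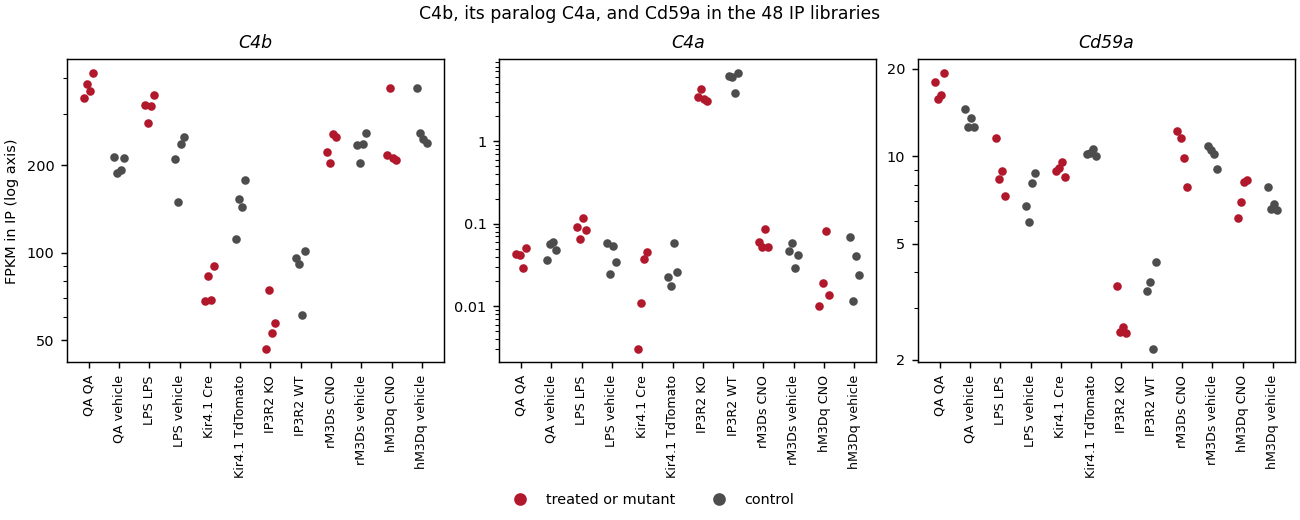
FPKM of C4b, C4a and Cd59a (log axes) in the 48 IP libraries, by experiment with the treated or mutant arm (red) left of its control arm (grey), 4 mice each. In both arms of the IP3R2 experiment C4a is at 3.06 FPKM or more and Cd59a at 4.34 FPKM or less, apart from all other libraries.

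At 2 h after CNO, no change of the 8 genes was detected in mice with rM3Ds. In IP limma called none, where 4.58% of 13535 genes passed, voom on recovered reads called none and none had an unadjusted p under 0.05. In input, where 0.591% of 14387 genes passed, the same 3 counts were 0. C3 was at 7.12, 7.99, 6.86 and 7.88 FPKM in CNO IP, against 9.60, 5.57, 10.5 and 7.75 FPKM in vehicle IP, and the CNO mice lay inside the range of the vehicle mice. The 95% interval of the log2 change in IP was -0.51 to 0.28 for C3, -0.19 to 0.21 for C4b, -0.40 to 0.21 for Serping1 and -0.36 to 0.49 for Cfb. The log2 changes of these 4 genes in QA and LPS IP were above these intervals. C4b was at 222, 204, 256 and 250 FPKM in CNO IP, against 234, 204, 236 and 258 FPKM in vehicle IP, and Serping1 at 28.6, 27.5, 19.7 and 22.1 FPKM in CNO IP, against 22.8, 25.5, 29.8 and 26.6 FPKM in vehicle IP. The effect was called different between IP and input for none of the 8 in limma, where 2.13% of genes differed, and none had an unadjusted p under 0.05 there. Of the other complement genes, none of 16 passed in IP, with 1 at an unadjusted p under 0.05.

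In mice with hM3Dq, CNO was followed by a lower level of 1 of the 8 genes in IP, where 45.7% of 13563 genes passed. Cd55 was at 2.15, 2.75, 2.22 and 2.47 FPKM in CNO IP, against 2.98, 3.54, 3.97 and 4.09 FPKM in vehicle IP. No values overlapped, and the change was -0.54 ± 0.13 (limma adjusted p = 0.00587). It was -0.61 without CNO replicate 2 and -0.63 without vehicle replicate 1. In input none passed in limma, where 3.72% of 14663 genes passed, or with voom, and none had an unadjusted p under 0.05. Cd55 differed by -0.12 ± 0.14 in input, and the difference between the effects in IP and input was -0.39 ± 0.17 (limma adjusted p = 0.133). Of the 8 genes none passed in that comparison in limma, where 21.8% of genes passed, and 1 had an unadjusted p under 0.05. Without vehicle replicate 1 it was -0.59 for Cd55 (limma adjusted p = 0.0292) and -0.77 for C3 (limma adjusted p = 0.0139), and both passed. Without CNO replicate 1, C4b passed at -0.32 (limma adjusted p = 0.012). Of the 8 genes Cd55 alone had arms without overlap in IP, as for 43.7% of all genes tested.

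The other genes of this experiment varied most through single mice. Serping1 was at 32.0, 115, 31.8 and 32.6 FPKM in CNO IP, against 65.8, 34.9, 28.1 and 37.1 FPKM in vehicle IP. CNO replicate 2 stood far above all others, and vehicle replicate 1 led the vehicle mice. C1ra followed the same mice, at 5.14, 17.9, 4.23 and 3.82 FPKM in CNO IP and 9.83, 3.98, 4.101 and 5.23 FPKM in vehicle IP. C4b was at 217, 367.3, 212 and 208 FPKM in CNO IP and 369, 258, 247 and 239 FPKM in vehicle IP. The input libraries of these 2 mice were also high, with C4b at 37.5, 83.5, 45.8 and 49.1 FPKM in CNO input and 70.2, 42.0, 45.7 and 44.4 FPKM in vehicle input. C1s1 was at 3.08, 9.07, 2.27 and 2.30 FPKM in CNO IP and 4.36, 2.48, 2.75 and 2.81 FPKM in vehicle IP, and Cfb at 1.26, 4.45, 1.77 and 1.78 FPKM in CNO IP and 3.18, 1.91, 2.13 and 1.35 FPKM in vehicle IP. In C3, CNO replicate 2 was highest in IP at 17.6 FPKM, and the other CNO mice, at 5.83 to 6.43 FPKM, were all below the vehicle mice, at 7.85 to 13.3 FPKM. Without CNO replicate 2 the change of C3 was -0.70 (limma adjusted p = 0.00416), against -0.32 ± 0.33 (limma adjusted p = 0.473) with all mice. The log2 change in IP was 0.25 ± 0.46 for C1ra with all mice, -0.26 without CNO replicate 2 and 0.53 without vehicle replicate 1. For C4b it was -0.12 ± 0.20 with all mice, -0.33 without CNO replicate 2 and 0.02 without vehicle replicate 1, and for Serping1 0.21 ± 0.41 with all mice, -0.25 without CNO replicate 2 and 0.46 without vehicle replicate 1. C1s1 was at 0.24 ± 0.39 with all mice and -0.21 without CNO replicate 2, and Cfb at 0.05 ± 0.36 with all mice and -0.31 without it. None of these 5 genes was called in IP with either mouse left out, and the sign of C1ra, C1s1, Cfb and Serping1 turned without CNO replicate 2. Cd55 and Cd59a of CNO replicate 2 did not stand apart, with Cd59a at 6.12, 6.95, 8.17 and 8.28 FPKM in CNO IP and 7.84, 6.60, 6.85 and 6.52 FPKM in vehicle IP.

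**Figure D5:**
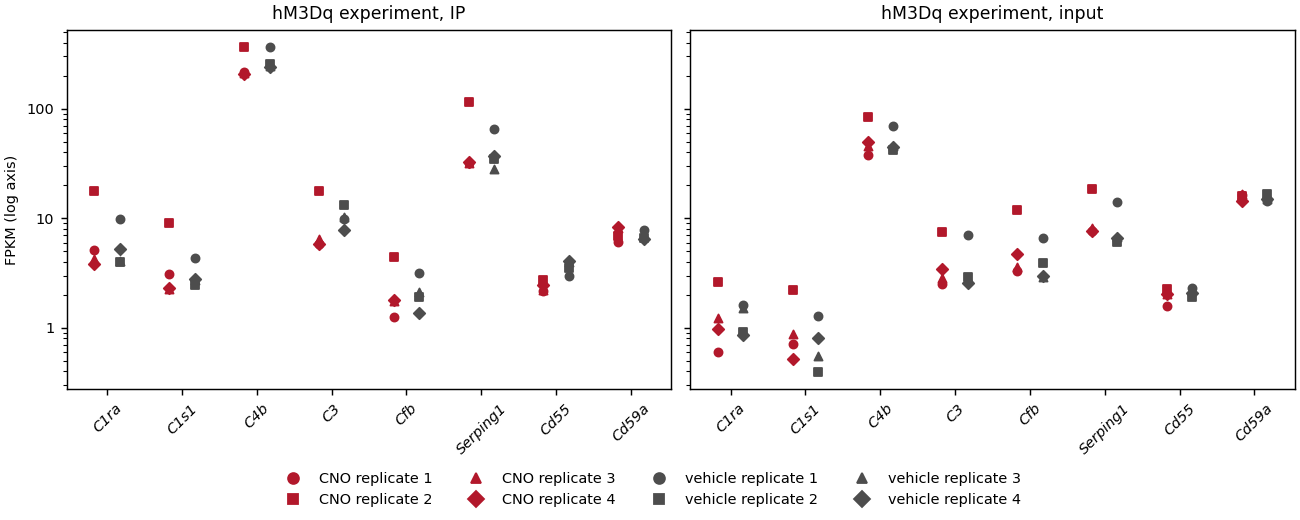
FPKM of the 8 genes (log axis) in each mouse of the hM3Dq experiment, in IP and input, CNO (red) left of vehicle (grey), with a marker shape for each replicate. CNO replicate 2 (red square) is highest for C1ra, C1s1, C3, Cfb and Serping1 in both fractions, while in IP all CNO mice lie below all vehicle mice for Cd55.

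Astrocyte markers moved with Cd55 in hM3Dq IP, with 7 of 12 lower and 1 higher and sums of 5605 to 7283 FPKM in CNO IP and 8035 to 8465 FPKM in vehicle IP. The markers of ependyma and choroid plexus were lower for 6 of 6 tested, with sums of 32.1 to 52.5 FPKM in CNO IP and 90.8 to 132 FPKM in vehicle IP. Their part in the change of Cd55 was not tested. Of the other complement genes, 14 passed the filter in IP, of which 1 rose and 3 fell, namely Cr1l (0.29), C8g (-0.83), Vtn (-0.71) and Masp1 (-0.44). In input 2 of 23 rose and none fell.

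Over the 12 arms, mean C4b in IP ran from 58.0 FPKM in mice labelled knockout and 77.4 FPKM in Cre mice to 317.04 FPKM in LPS mice and 374 FPKM in QA mice. C3 in IP ran from 2.43 FPKM in mice labelled knockout to 31.7 FPKM with LPS and 64.8 FPKM with QA. Cfb was highest with LPS, at 6.54 ± 3.53 FPKM, and next with QA, at 4.08 ± 1.35 FPKM, which differ by less than their spread. Control levels differed between experiments too, C4b from 87.5 FPKM in wild-type littermates of the IP3R2 experiment to 278 FPKM in hM3Dq vehicle mice, and Cfb in IP from 0.278 to 2.14 FPKM in the same groups. Experiments were sequenced as separate projects, so levels across them are descriptions only.

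Likeness of pattern was measured over the 48 IP libraries as Pearson's r of log2 values, each less the mean of its experiment's controls, among 11504 genes whose mean in these libraries reached 2 FPKM. These libraries share treatments and experiments. Between the 6 genes other than Cd55 and Cd59a, r ran from 0.86 to 0.97 over the 15 pairs, highest for C1ra with Serping1. Cd59a had an r of 0.59 to 0.70 with these 6, and Cd55 of -0.27 to -0.11. The genes most like Serping1 were Psme1 (0.97), C1ra (0.97), Ube2l6 (0.97), Tapbp (0.97) and H2-T23 (0.96), and those most like C1ra were Ube2l6 (0.97), Serping1 (0.97), Tapbp (0.97), Tap2 (0.97) and Psme1 (0.96). Psme1, Tapbp, Tap2 and H2-T23 belong to antigen processing and presentation by MHC class I. C3 was most like Casp12 (0.95), Tapbpl (0.93), Serping1 (0.92), Art3 (0.91) and Tapbp (0.91), and Cfb most like Cp (0.95), C1ra (0.95), Ube2l6 (0.93), Tapbp (0.93) and Plce1 (0.93). C4b was most like Ube2l6 (0.94), Ifitm3 (0.94), Tap2 (0.94), Gm12250 (0.94) and Psmb8 (0.94), and C1s1 most like C1ra (0.94), Serping1 (0.93), Tap2 (0.93), Ube2l6 (0.93) and C4b (0.92). The membrane regulators had other neighbours, Cd59a being most like Ifih1 (0.81), Samd9l (0.78), Herc6 (0.78), Zc3hav1 (0.77) and Trim30d (0.77) and Cd55 most like Ppp2r5d (0.83), Tmem38a (0.81), Ndufa5 (0.81), Acat1 (0.81) and Ccdc88c (0.80).

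Close copies could share reads with 4 of the genes. C1rb was listed at 0 in 46 of the 96 libraries and made up a median of 0.113% and at most 13.5% of the summed FPKM of C1ra and C1rb. C1s2 made up a median of 2.26% and at most 32.7% of its pair with C1s1, and Cd59b a median of 6.80% and at most 32.7% of its pair with Cd59a. C4a made up a median of 0.232% of its pair with C4b and at most 7.92%. How reads that match both copies were counted is not given in the sources used here, so the values of these 4 genes are uncertain where the copy holds a large share of the pair.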

How the data were processed

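RNA of IP and input libraries from 48 mice was sequenced, 96 libraries in all; the series' design text speaks of 40 mice and 80 samples. Per the submitters' processing notes, the authors aligned reads to mm10 with STAR and counted them per gene with HTSeq, and they deposited 1 table of FPKM values per library. The labels name both a ribosomal RNA depletion kit and polyA RNA, and whether counting used strand is not given in the sources used here.

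Whole reads could be recovered from the FPKM steps for 99.9999% of values above 0 (within 0.001 read) and served voom only. FPKM values are printed as deposited. Tests used limma's trend method on log2(FPKM + 0.1) after TMM scaling, within 1 experiment and fraction, over the genes that reached 0.5 FPKM in 4 or more of the libraries compared. P-values were adjusted by Benjamini-Hochberg over all genes tested, with a threshold of 0.05. Differences between IP and input had the mouse as a block, since both libraries of a mouse carry its name. The fits were tested on simulated counts with a single fixed spread and no outlying mice, so that test does not cover mice that stand apart. Alternatives were no TMM, pseudocounts of 0.01 and 1, no filter, a spread shared over all experiments of a fraction, voom, a replicate block, sex, and leaving out each mouse. Mice with equal replicate numbers were not treated as pairs. Within each arm and fraction of an experiment, no 2 of the 4 libraries were copies of each other. The 8 genes, the pathway and marker lists and the tests were chosen with earlier results of these data known. All 8 genes are described, with up to 4 called genes of the pathway list by size of change, and the 5 genes of highest correlation. R 4.3.3, limma 3.58.1, Python 3.11.15, numpy 2.4.6, pandas 2.3.3 and matplotlib 3.10.9 were used.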

Additional observations from a re-analysis of the deposited data

Results flagged for a closer look

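In the hM3Dq experiment, CNO replicate 2 lay far from the other 3 CNO mice in IP for 6 of the 8 genes: C1ra (17.9 FPKM), C1s1 (9.07 FPKM), C4b (367.3 FPKM), C3 (17.6 FPKM), Cfb (4.45 FPKM) and Serping1 (115 FPKM). In input the same mouse stood apart for Cfb (11.8 FPKM) and Serping1 (18.3 FPKM). Vehicle replicate 1 of that experiment stood above its group for C4b in IP (369 FPKM) and, in input, for C4b (70.2 FPKM), C3 (7.06 FPKM) and Serping1 (14.04 FPKM).

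QA replicate 3 was far below the other QA mice for C3 in IP (22.8 FPKM). Cre replicate 2 of the Kir4.1 experiment stood apart for C3 in input (2.23 FPKM), and TdTomato replicate 4 for Cfb in IP (0.803 FPKM). Vehicle replicate 2 of the QA experiment was low for C1ra in input (0.944 FPKM), and replicate 1 of the mice labelled Itpr2-/- was apart for Cd59a in IP (3.57 FPKM). Of 192 groups of 4 values 17 held such a value, and chance alone gives about 1 in 20.

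The treatment effect differed between IP and input, as IP minus input on the log2 scale, for C4b (-0.96), Serping1 (-0.23) and Cd59a (0.90) with QA, for C1ra (0.62) and Cfb (1.95) with LPS, and for Serping1 (-0.67) with Cre.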

How the results depend on the processing

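The number of the 8 genes called in QA IP, QA input, LPS IP, LPS input, Kir4.1 IP and IP over input in controls stayed within 1.5 times under every alternative run, and none was called under any in IP3R2 or rM3Ds. For the 2 genes whose LPS effect differed between IP and input, the count was 4 with a pseudocount of 1, 0 with no mouse block and 1 to 4 when single mice were left out. Of the tested genes in Kir4.1 input, where none was called, 3 passed with a shared spread, 4 with voom and 0 to 1 without single mice. Over all genes the shared spread and voom also called more there, as counted below. For the 1 gene whose Cre effect differed, the count was 3 with a pseudocount of 1, 0 with no mouse block and 0 to 1 without single mice. In hM3Dq, leaving out single mice gave 1 to 2 genes in IP and 0 to 2 for the difference between IP and input, of which the higher counts came without CNO replicate 2 and without vehicle replicate 1.

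With the replicate number as a block, 8 genes were called in QA IP, 8 in QA input, 6 in LPS IP, 6 in LPS input (Cd55 lost) and 7 in Kir4.1 IP (C3 gained), and no other count changed. In no comparison did all 4 pairs of equal numbers correlate above 0.1, the bar set for pairing. In rM3Ds 3 of 4 pairs exceeded it, with r up to 0.53 in IP and 0.38 in input, and the block called none of the 8 genes there. Among 2360 single values, 2300 kept direction and call, 34 lost the call, 26 gained it and none of the called ones turned sign. Over all genes, calls differed by more than 1.5 times from the count given for the LPS difference without the mouse block (191 against 1257), Kir4.1 IP with a shared spread (1429 against 3969) and IP3R2 IP with a shared spread (31 against 0), and the rM3Ds difference had 143 calls without the mouse block, or fewer than its 2.13% of genes with it. In Kir4.1 input they were 25 with no filter, 29 with a replicate block, 150 with a shared spread and 141 with voom, against 49. In hM3Dq input they were 335 with a replicate block and 842 with a shared spread, against 546. Without TMM the median over all genes moved to -0.16 in LPS IP and to -0.15 for the QA difference between IP and input. The cause of these changes was not tested. At 4 mice an arm, genes near 1 FPKM, Cfb above all, were the least precise.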
